A study of Mus musculus with 16 samples.

Results

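The genes described here are 43 genes of the cell division cycle and of DNA replication, chosen by name, and 42 of them were measured among the 18193 genes of the array series. The 43rd, the mitotic cyclin Ccnb1, was not analysed here. Bone marrow of wild type C57BL/6 mice was grown with the myeloid growth factor GM-CSF for 8 days to give immature dendritic cells, which were placed in fresh medium, again with GM-CSF. Lactobacillus acidophilus NCFM, a probiotic strain of a gut bacterium, was then added at 10 µg/ml and the cells were taken after 4, 10 or 18 h, with 3 arrays at each time. Control cells of the same strain and culture were taken at the same times, on 3 arrays for 4 h and on 2 arrays each for 10 and 18 h. Separate mice or cultures behind the replicates are not stated in the labels, and the p-values therefore cover the spread between arrays and nothing beyond it.

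A dividing cell passes a commitment point in G1, copies its DNA once in S phase and separates the copies in mitosis. D-type cyclins with Cdk4 and E-type cyclins with Cdk2 release E2F factors, which switch on the genes for origin licensing, nucleotide supply and the replication fork. A later wave of genes, read largely through the CHR promoter element, supplies the kinases, checkpoint proteins and ubiquitin enzymes of mitosis. Precursors in bone marrow cultures with GM-CSF divide, and dendritic cells that mature after contact with microbes are known to leave the cycle. Each array measured the whole culture, so a lower intensity can come from fewer dividing cells or from less RNA per cell, which cannot be told apart.

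The array medians lay between 162 and 167 in intensity, and with 2 or 3 arrays to a group the precision is limited. The dendritic cell markers Cd74, H2-Aa and H2-Ab1 lay at 11292 to 24211 on the arrays, and Itgax and Ccl17 at 1654 to 27707, while Flt3 and Zbtb46 were low at 306 to 955 and Cd209a was dim at 146 to 241. The arrays numbered 1 stood apart in all 6 groups. Xist lay at 7.94 to 8.53 on them and at 10.97 to 12.9 on the others (log2 intensity), and the Y-linked Eif2s3y at 9.81 to 10.26 on the number 1 arrays and at 5.98 to 6.19 on the others. This is the pattern of male cells on number 1 and of female cells on the others, so number 1 held cells of other mice. Array number and sex cannot be told apart here. The number 1 arrays also held more signal of the cell cycle genes. In control cells all 42 genes were highest on number 1 at every time, with median distances of 1.27, 1.32 and 1.55 (log2) at 4, 10 and 18 h. In NCFM cells 42, 37 and 23 genes were highest there at 4, 10 and 18 h, by medians of 0.88, 0.46 and 0.19. Highest on number 1 in all 6 groups were 23 of the 42 genes, and 5.17% of all genes. The higher signal on number 1 was known before the fit and was the reason for the block, so these counts are a description and not a test. Shares of all genes for the single groups are not given, so the counts per group cannot be set against all genes. The array number was kept as a block in the fit with limma. Changes are given as log2 of NCFM over control with the standard error (SE) of that fit. A gene was called at an adjusted p under 0.05.

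Few of the cell cycle genes were called lower in NCFM cells than in control cells at 4 h, and most of them were at 10 and 18 h. At 4 h, 4 of the 42 genes were called lower and none higher, where 19.3% of all genes were called lower and 7.55% higher, so the share of cell cycle genes called was below that of all genes. At 10 h, 22 were called lower and none higher, where 21.2% of all genes were called lower and 9.95% higher. At 18 h, 27 were called lower and none higher, where 21.3% of all genes were called lower and 9.2% higher. The median change of the 42 genes was -0.38 at 4 h, -0.80 at 10 h and -0.99 at 18 h, while a median over all genes lay near 0. The numbers that were at least 2-fold lower and called were 2, 13 and 19. The share of all genes that met both conditions is not given here, so these counts cannot be set against all genes. Every NCFM array lay below every control array for 3 genes at 4 h, 16 at 10 h and 27 at 18 h, where this held for 22.7%, 28.9% and 26.1% of all genes. Over the 93 probe sets of the 42 genes, 10, 34 and 52 were called lower, where 15.3%, 18.3% and 18.2% of all probe sets were. Without the replicate block, which leaves the difference between array numbers in the spread, 2 genes were called lower at 4 h, 4 at 10 h and 6 at 18 h. In that fit 13.1%, 16.5% and 16.3% of all genes were called lower at these times, so the share of cell cycle genes called was below that of all genes at each time. At 18 h those 6 were Cdk2, Cdk4, Mcm3, Mcm7, Pola1 and Stmn1, which were called under every alternative tried. At 10 h Cdk2 and Cdk4 were.

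Single arrays moved these counts. Leaving out control 10 h replicate 1 left 5 genes called at 10 h, and leaving out NCFM 10 h replicate 1 left 14. Without control 18 h replicate 1 the count at 18 h was 13. At 4 h, 2 genes were called when NCFM 4 h replicate 2 or 3, or the 4 h control array numbered 1 or 2, was left out. There, 8 were called without either 18 h control array and 12 without NCFM 18 h replicate 1. Called in every fit with 1 array left out were 2 genes at 4 h (Gmnn and Mcm7), 5 at 10 h (Cdk2, Cdk4, Mcm7, Pola1 and Stmn1) and 13 at 18 h.

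**Figure D1:**
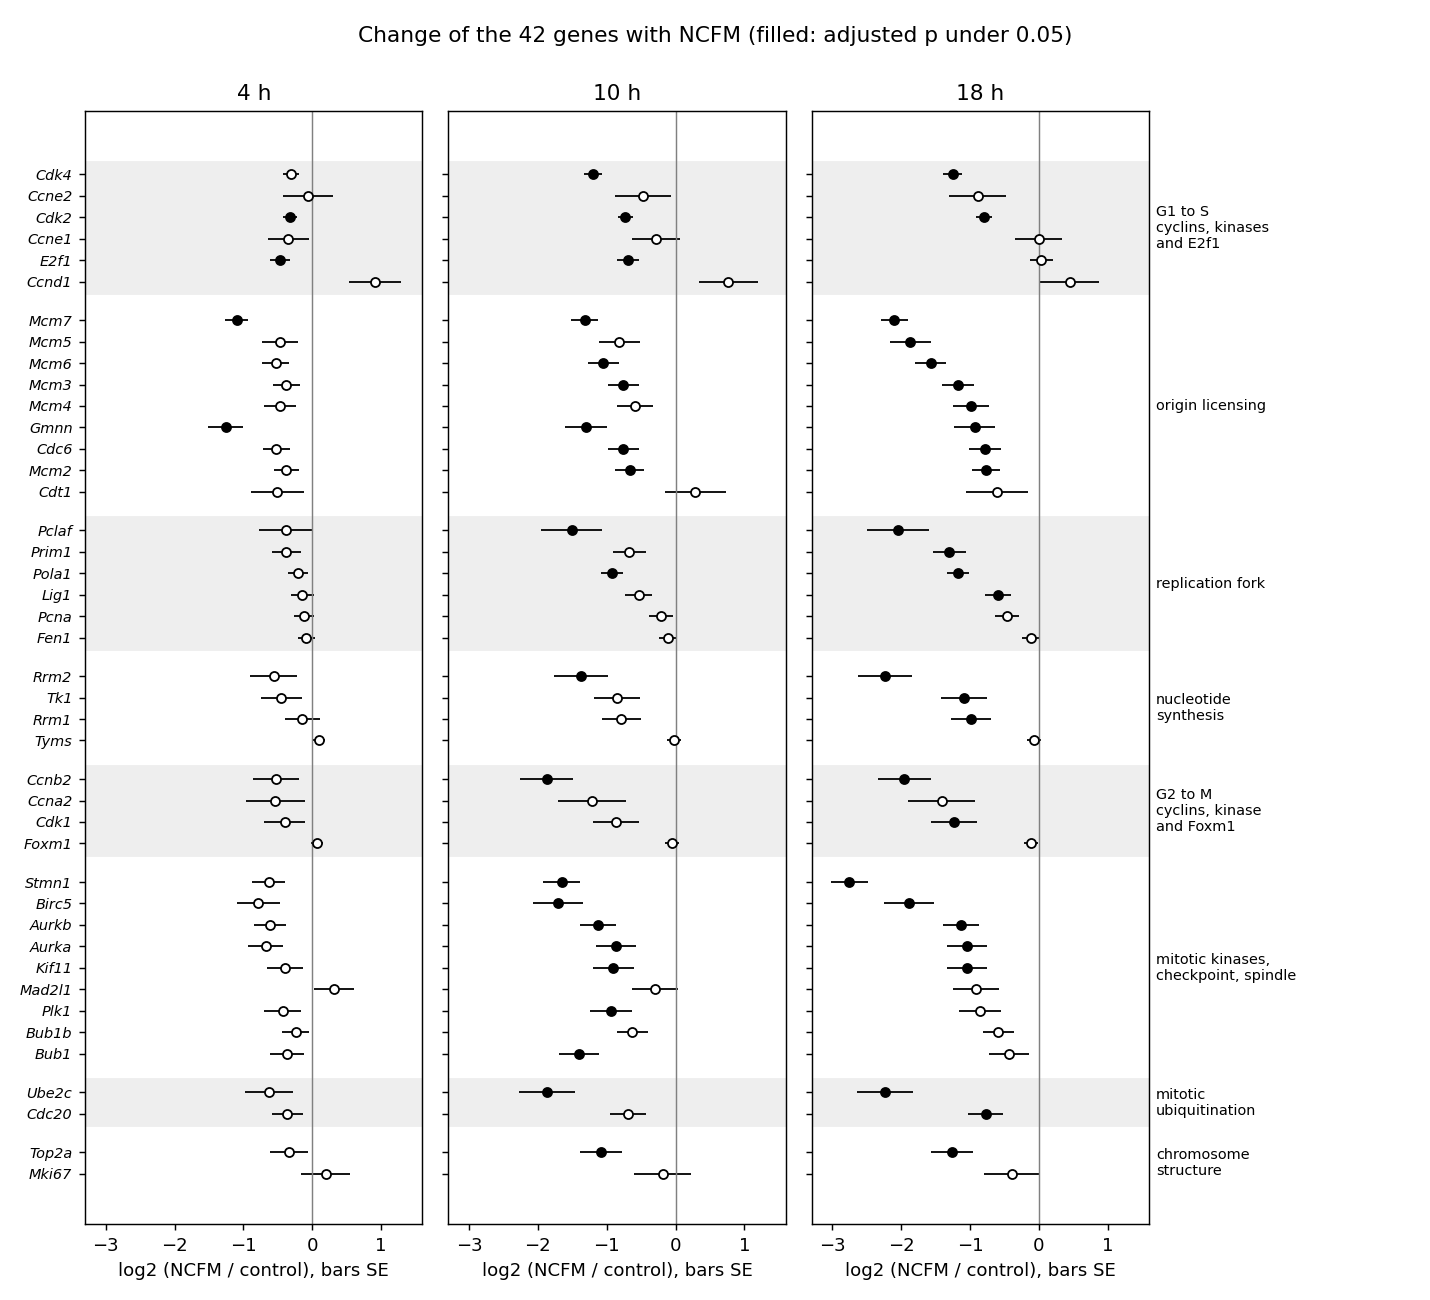
Change of each of the 42 genes as log2 of NCFM over control (horizontal axis, bars are the SE) at 4, 10 and 18 h, grouped by role, with filled points for genes called at adjusted p under 0.05. Filled points number 4 at 4 h, 22 at 10 h and 27 at 18 h, all left of 0, and Ccnd1 lies right of 0 at each time without being called.

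Every pair of arrays with equal number had a median below 0, with different sizes. On number 1 the median difference of the 42 genes, NCFM minus control, was -0.59 at 4 h, -1.21 at 10 h and -1.80 at 18 h (log2). On number 2 it was -0.26 at 4 h, -0.47 at 10 h and -0.36 at 18 h, and on number 3, which has a control at 4 h only, -0.27. At 18 h all 42 genes were lower on number 1 (51.0% of all genes) and 35 of them at least 2-fold (4.47% of all genes). On number 2, 33 were lower (49.5% of all genes) and 9 at least 2-fold (6.0%). The 10 h pairs had 29 of the genes at least 2-fold lower on number 1 (4.35% of all genes) and 9 on number 2 (3.74%). The 4 h pairs had 4 on number 1 (0.687% of all genes), 2 on number 2 (1.67%) and 4 on number 3 (4.09%). Lower by any amount at 4 h were 40, 36 and 34 of the 42 genes on numbers 1, 2 and 3. Over all genes 56.1%, 51.3% and 51.0% were. Over the 7 pairs of equal number, 28 of the 42 genes were lower in NCFM cells every time, and 33 in 6 or 7 pairs, where this held for 21.7% and 31.5% of all genes.

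**Figure D2:**
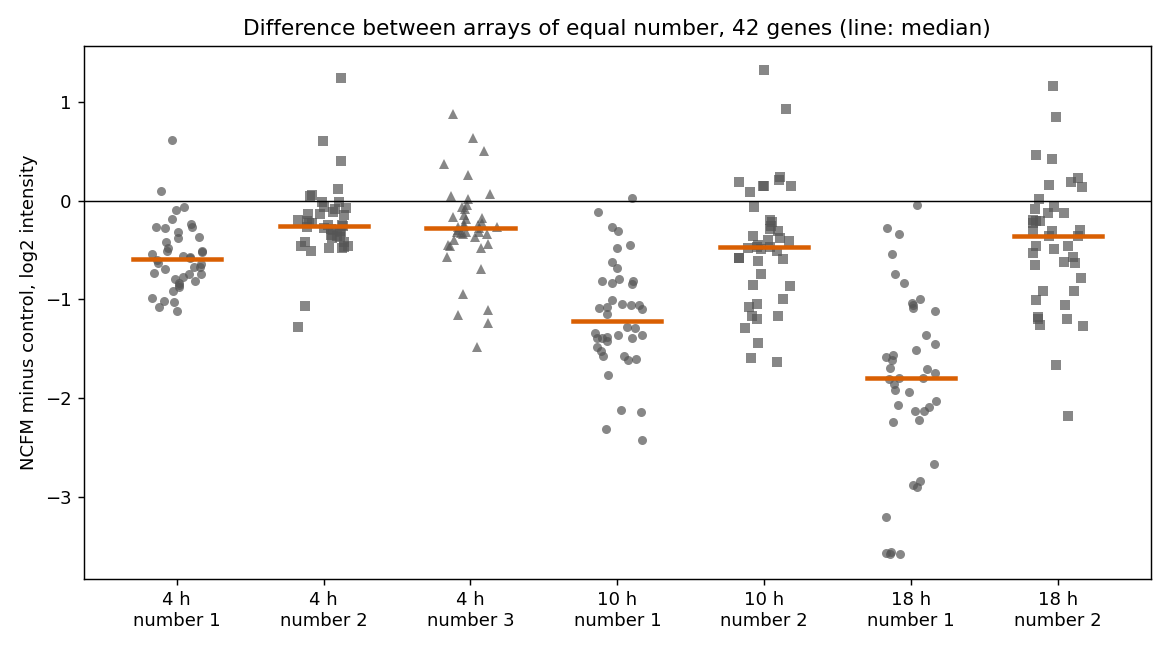
Difference in log2 intensity, NCFM minus control, between arrays of equal number (vertical axis) for each pair by time and number (horizontal axis), with 1 point for each of the 42 genes and an orange line at their median. The median falls to -1.80 on number 1 at 18 h and lies at -0.36 on number 2.

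The difference between the numbers was tested with 1 added term, the NCFM effect on arrays numbered 1 minus that on numbers 2 and 3, over the 3 times. The term lay below 0 for all 42 genes, with a median of -0.81. It passed for 13 of them (limma, adjusted p under 0.05), where 0.945% of all genes passed in that direction. The largest were the cyclins Ccna2 (-1.58 ± 0.29 SE, adjusted p = 0.0317) and Ccne2 (-1.32 ± 0.24, 0.0314) and the licensing factor Cdt1 (-1.42 ± 0.28, 0.0371). The 5 genes that were more than 4-fold lower at 18 h did not pass, with terms of -1.13 ± 0.29 for Rrm2 (adjusted p = 0.0989), -1.02 ± 0.36 for Ube2c (0.213), -0.83 ± 0.46 for Pclaf (0.471), -0.40 ± 0.19 for Mcm7 (0.376) and -0.30 ± 0.30 for Stmn1 (0.752). The term pools the times, and at 18 h alone all 5 genes were lower by more on number 1 than on number 2. NCFM minus control on numbers 1 and 2 was -3.58 and -1.20 for Rrm2, -3.57 and -1.26 for Ube2c, and -3.56 and -1.06 for Pclaf. For Mcm7 it was -2.66 and -1.66, and for Stmn1 -3.58 and -2.18. The array number term was chosen after seeing the data. With the 5th percentile of each array subtracted as background, none of the 42 genes passed (lowest adjusted p = 0.0738, 30 at an unadjusted p under 0.05). Leaving out 1 array gave 0 to 30 genes. The count was 0 when NCFM 10 h replicate 2, the third 4 h control array or either 18 h control array was left out. It was 1 to 8 when 1 of the other 10 h or 18 h arrays or the first 4 h control array was left out, and 30 without NCFM 4 h replicate 1.

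At the entry to S phase, 6 genes were measured, and 2 were called lower at 4 h, 3 at 10 h and 2 at 18 h. Here and for each role below, 19.3%, 21.2% and 21.3% of all genes were called lower at these times. The role lists are short, and several of their low counts lie near these shares. Cdk4, the kinase partner of the D-type cyclins, changed most. At 4 h it lay at 1100, 1052 and 970 in NCFM cells and at 1475, 1246 and 1146 in control cells (intensity on arrays 1, 2 and 3). The 10 h values were 665, 592 and 600 in NCFM cells and 1688 and 1250 in control cells. The 18 h values were 535, 650 and 622 in NCFM cells and 1637 and 1301 in control cells. Every NCFM array was below every control array at all 3 times, and at 18 h the NCFM number 1 array was the lowest of its group. Cdk4 fell by 1.20 at 10 h (SE 0.13, adjusted p = 7.58e-05) and by 1.25 at 18 h (SE 0.13, 5.61e-05), and at 4 h the difference of -0.30 did not pass (0.0797).

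Cdk2, the kinase of the E-type cyclins, was called at all 3 times, with -0.33 ± 0.10 at 4 h (adjusted p = 0.03), -0.73 ± 0.11 at 10 h (0.000646) and -0.79 ± 0.11 at 18 h (0.000359). On the arrays it stood at 665, 662 and 747 in NCFM cells and at 1366 and 1043 in control cells at 18 h, with no overlap. E2f1, an activator of S phase genes, had another course. At 4 h it lay at 375, 331 and 357 in NCFM cells and at 569, 459 and 446 in control cells, and at 10 h at 338, 323 and 360 in NCFM cells and at 594 and 485 in control cells. After 18 h it stood at 415, 550 and 648 in NCFM cells and at 525 and 483 in control cells. The groups were separate at 4 and 10 h and overlapped at 18 h. E2f1 was called lower at 4 h (-0.46 ± 0.14, adjusted p = 0.0354) and at 10 h (-0.69 ± 0.17, 0.00862), and was not at 18 h (0.04, 0.891). Within NCFM cells it was 0.58 ± 0.14 higher at 18 h than at 4 h (adjusted p = 0.0133), the 1 gene of the 42 called higher there, where 11.2% of all genes were called higher.

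The cyclins of this step were not called at any time. Ccnd1, cyclin D1, was the gene farthest above 0. At 4 h it lay at 1401, 906 and 617 in NCFM cells and at 914, 383 and 337 in control cells. Its 18 h intensities were 509, 681 and 774 in NCFM cells and 853 and 306 in control cells. On number 2 it was higher in NCFM cells at each time, including 851 in NCFM cells against 341 in control cells at 10 h, while at 18 h on number 1 it was lower. Its changes of 0.91 (adjusted p = 0.101), 0.77 (0.207) and 0.45 (0.483) did not pass. Ccne1 had changes of -0.35 at 4 h, -0.28 at 10 h and -0.001 at 18 h, and Ccne2 of -0.06, -0.47 and -0.89.

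**Figure D3:**
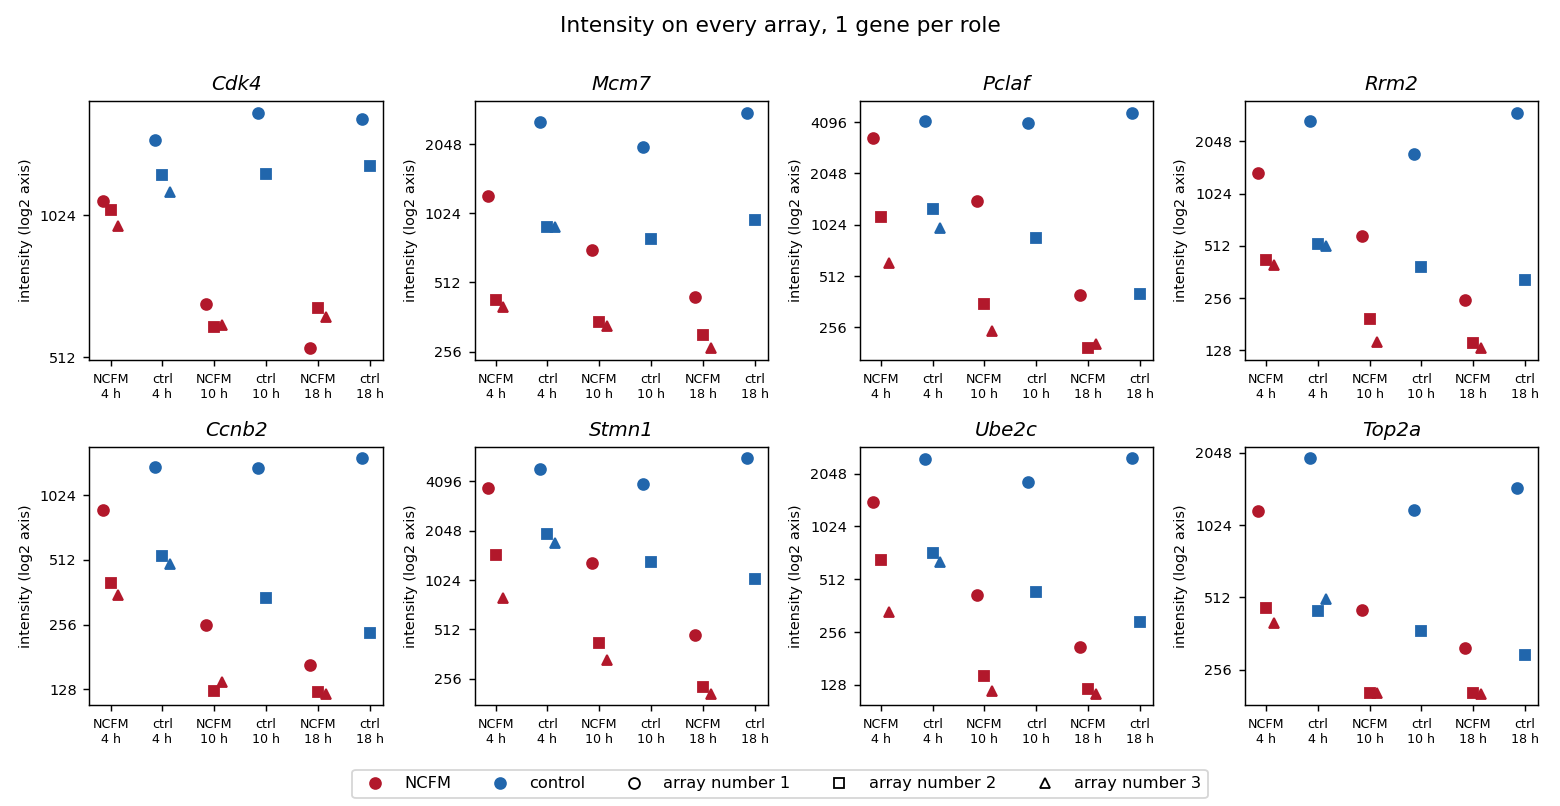
Intensity on each array (vertical axis, log2 scale) of the gene with the largest mean change in each role, with NCFM (red) left of control (blue) at 4, 10 and 18 h and the marker shape giving the array number. Number 1 (circles) lies highest in the control groups for each of the 8 genes, and each gene lies lower in NCFM cells than in control cells of equal number at 10 and 18 h.

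Origin licensing loads the Mcm2 to Mcm7 helicase onto DNA before S phase, with Cdc6 and Cdt1 as loaders and geminin (Gmnn) as the inhibitor of Cdt1. Of 9 genes, 2 were called lower at 4 h, 6 at 10 h and 8 at 18 h, with a median change of -0.99 at 18 h. Mcm7, a helicase subunit, lay at 1217, 428 and 401 in NCFM cells at 4 h and at 2558, 897 and 893 in control cells. After 10 h it stood at 711, 346 and 330 in NCFM cells and at 1992 and 795 in control cells. At 18 h it lay at 444, 301 and 265 in NCFM cells and at 2806 and 954 in control cells. Each NCFM array was below the control array of its number, and at 10 and 18 h the groups did not overlap. The change was -1.10 ± 0.17 at 4 h (adjusted p = 0.000819), -1.32 ± 0.19 at 10 h (0.000469) and -2.10 ± 0.19 at 18 h (2.37e-05), which is 4.27-fold lower. All 4 probe sets of Mcm7 were called lower at 18 h, the other 3 at -1.24, -1.41 and -1.55.

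The other helicase subunits followed at 10 or 18 h. Mcm5 changed by -1.87 ± 0.30 at 18 h (adjusted p = 0.000736), Mcm6 by -1.57 ± 0.22 (0.000355), Mcm3 by -1.17 ± 0.23 (0.00271), Mcm4 by -0.99 ± 0.26 (0.0144) and Mcm2 by -0.76 ± 0.21 (0.0166). Mcm2, Mcm3 and Mcm6 were called at 10 h as well. Second probe sets of Mcm4 (-0.82) and Mcm6 (-0.63) were already called at 4 h. The loader Cdc6 was called at 10 h (-0.76) and 18 h (-0.78), at low intensities of 88 to 156 in NCFM cells and 119 to 324 in control cells at those times. Geminin fell early. At 4 h it lay at 573, 290 and 240 in NCFM cells and at 1157, 706 and 672 in control cells, with no overlap. The 18 h values were 436, 594 and 534 in NCFM cells and 1577 and 738 in control cells. Its changes were -1.26 ± 0.26 (adjusted p = 0.00466), -1.30 ± 0.30 at 10 h (0.00686) and -0.93 ± 0.30 (0.0367). Cdt1, the protein that geminin holds back, was the 1 licensing gene never called. Its 10 h intensities were 832, 1314 and 1293 in NCFM cells and 1159 and 693 in control cells. There it was lower with NCFM on number 1 and higher on number 2.

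The promoters of the licensing genes held E2F words more often than promoters at large. Promoters were taken from RefSeq on the GRCm38.p6 build, 250 bases before to 50 after each start site, and 34 of the 42 genes had 1 or more, 38 in all. The E2F words searched were TTTCCCGC, TTTGGCGC, TTTCGCGC and TTTGCCGC with their other strands GCGGGAAA, GCGCCAAA, GCGCGAAA and GCGGCAAA, which can overlap. They occurred in 11 of the 38 promoters (28.9%) and in 2.26% of 32851 promoters of that length. Of 7 licensing genes with a promoter 6 held one, as did 3 of 6 replication fork genes. So did 1 of 2 G2 to M genes and 1 of 4 S phase entry genes. None of 4 nucleotide synthesis genes held one, and none of 7 genes of mitotic kinases, checkpoint and spindle. No gene of mitotic ubiquitination or chromosome structure did. The matches are a description and not sites shown to be bound. Below are the promoters of Mcm6 and Mcm7, called lower helicase genes with several matches, and of Pclaf, the fork gene with the largest change, each 5′ to 3′ in the direction of the gene with the E2F words in capitals. In Mcm6 a pair of words overlap in the first run of capitals.
Mcm6, chr1:128359656-128359955, minus strand: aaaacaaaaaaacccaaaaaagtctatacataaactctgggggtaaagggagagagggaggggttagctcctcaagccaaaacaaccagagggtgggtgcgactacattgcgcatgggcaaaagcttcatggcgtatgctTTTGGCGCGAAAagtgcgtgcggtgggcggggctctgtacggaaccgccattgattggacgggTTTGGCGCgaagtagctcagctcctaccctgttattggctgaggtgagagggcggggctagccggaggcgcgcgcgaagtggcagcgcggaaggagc
Mcm7, chr5:138171834-138172133, minus strand: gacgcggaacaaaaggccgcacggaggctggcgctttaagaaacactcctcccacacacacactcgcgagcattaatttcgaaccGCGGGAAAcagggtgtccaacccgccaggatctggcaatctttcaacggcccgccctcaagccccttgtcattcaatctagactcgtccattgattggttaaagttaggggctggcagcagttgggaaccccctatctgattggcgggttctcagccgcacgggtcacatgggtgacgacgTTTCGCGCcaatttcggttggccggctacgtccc
Pclaf, chr9:65890073-65890372, plus strand: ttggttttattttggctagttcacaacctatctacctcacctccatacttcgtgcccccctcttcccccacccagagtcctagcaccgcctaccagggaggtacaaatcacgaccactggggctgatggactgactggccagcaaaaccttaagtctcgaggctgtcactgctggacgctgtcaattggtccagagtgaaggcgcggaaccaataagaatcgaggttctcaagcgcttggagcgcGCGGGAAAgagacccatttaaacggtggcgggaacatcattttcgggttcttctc

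At the replication fork none of 6 genes was called at 4 h, 2 were called lower at 10 h and 4 at 18 h. Pclaf, a small protein that binds the sliding clamp PCNA, lay at 3331, 1142 and 608 in NCFM cells at 4 h and at 4146, 1266 and 981 in control cells. At 10 h it lay at 1408, 352 and 243 in NCFM cells and at 4029 and 861 in control cells. After 18 h it stood at 395, 193 and 203 in NCFM cells and at 4652 and 401 in control cells. Only the 18 h groups were separate, and there by a narrow margin, 395 in NCFM cells against 401 in control cells. The change was -1.51 ± 0.45 at 10 h (adjusted p = 0.0255) and -2.05 ± 0.45 at 18 h (0.00529). Pola1, the catalytic subunit of DNA polymerase alpha, was called at 10 h (-0.92 ± 0.16, 0.00152) and 18 h (-1.18 ± 0.16, 0.000322). Its partner Prim1, the primase, was called at 18 h (-1.30 ± 0.24, adjusted p = 0.00214), as was the ligase Lig1 (-0.59 ± 0.19, 0.0373).

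Pcna, the sliding clamp, was bright throughout and was not called. It lay at 4089, 3698 and 4135 in NCFM cells and at 7305 and 4040 in control cells at 18 h, where its change was -0.46 ± 0.17 (adjusted p = 0.0649). Fen1, the flap nuclease, had a change of -0.11 at 18 h on its brightest probe set, which may match other transcripts. Its second probe set was called lower there, by -1.35 (adjusted p = 0.0043 over all probe sets).

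In nucleotide synthesis none of 4 genes was called at 4 h, 1 at 10 h and 3 at 18 h, all lower. Rrm2, the S phase subunit of ribonucleotide reductase, lay at 1345, 422 and 396 in NCFM cells at 4 h and at 2661, 525 and 512 in control cells. The 10 h values were 583, 194 and 143 in NCFM cells and 1731 and 386 in control cells. Its 18 h intensities were 250, 141 and 132 in NCFM cells and 2985 and 324 in control cells. The groups overlapped at 4 and 10 h and were separate at 18 h. Its change was -1.37 ± 0.39 at 10 h (adjusted p = 0.0213) and -2.23 ± 0.39 at 18 h (0.00136), or 4.71-fold lower. The 18 h value stands for unlike pairs, with -3.58 on number 1 and -1.20 on number 2. The large subunit Rrm1 (-0.98 ± 0.29, adjusted p = 0.024) and thymidine kinase Tk1 (-1.08 ± 0.34, 0.0316) were called at 18 h. Tyms, thymidylate synthase, was dim on every array (103 to 160), with changes between -0.07 and 0.10 and no call.

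Among the genes of the G2 to M transition, 1 of 4 was called lower at 10 h and 2 at 18 h. Ccnb2, a mitotic cyclin, lay at 872, 399 and 350 in NCFM cells at 4 h and at 1388, 533 and 489 in control cells. After 10 h it stood at 256, 126 and 138 in NCFM cells and at 1367 and 341 in control cells. At 18 h it lay at 166, 124 and 122 in NCFM cells and at 1522 and 233 in control cells. The groups did not overlap at 10 and 18 h, and the changes were -1.87 ± 0.38 (adjusted p = 0.00362) and -1.95 ± 0.38 (0.00284). Cdk1, the mitotic kinase, was called at 18 h (-1.23 ± 0.33, adjusted p = 0.0171). Ccna2, the S and G2 phase cyclin, missed the threshold at 18 h (-1.41 ± 0.49, 0.0508) on its brightest probe set and passed on its second (-1.33, 0.0377 over all probe sets). At 18 h Ccna2 lay at 449, 398 and 399 in NCFM cells and at 3336 and 460 in control cells. Foxm1, a factor that drives mitotic genes, had changes between -0.11 and 0.07 and was not called.

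Of the 9 genes of mitotic kinases, checkpoint and spindle none was called at 4 h, 7 were called lower at 10 h and 5 at 18 h. Stmn1, stathmin, a protein that destabilises microtubules, had the largest change of the 42 genes at 18 h. At 4 h it lay at 3750, 1453 and 797 in NCFM cells and at 4883, 1943 and 1712 in control cells. Its 10 h intensities were 1294, 422 and 334 in NCFM cells and 3954 and 1311 in control cells. The 18 h values were 474, 228 and 207 in NCFM cells and 5666 and 1034 in control cells. At 18 h even the highest NCFM array was below the lower control array, and at 10 h only just, with 1294 in NCFM cells against 1311 in control cells. The changes were -1.65 ± 0.27 at 10 h (adjusted p = 0.00093) and -2.75 ± 0.27 at 18 h (3.45e-05), the second being 6.74-fold lower. Its second probe set gave -1.63 at 18 h.

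Birc5, survivin, a subunit of the chromosomal passenger complex, was called at 10 h (-1.71 ± 0.36, adjusted p = 0.0044) and 18 h (-1.88 ± 0.36, 0.00251). Its kinase Aurkb was called at both times (-1.13 each, adjusted p = 0.00789 and 0.00783), and so were Aurka (-0.87 and -1.04) and the spindle motor Kif11 (-0.90 and -1.04). The checkpoint kinase Bub1 was called at 10 h (-1.40 ± 0.29, 0.00388) and not at 18 h (-0.43, 0.3). At 10 h Bub1 lay at 231, 116 and 95 in NCFM cells and at 786 and 240 in control cells. After 18 h it stood at 337, 251 and 179 in NCFM cells and at 864 and 188 in control cells, with number 2 higher in NCFM cells. Plk1 was likewise called at 10 h (-0.94, adjusted p = 0.0384) and missed at 18 h (-0.86, 0.0564). The checkpoint genes Bub1b and Mad2l1 were not called at any time on their brightest probe sets, and a second Bub1b probe set was called lower at 10 h (-1.19) and 18 h (-1.17).

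Both mitotic ubiquitination genes were called lower at 18 h. Ube2c, the ubiquitin-conjugating enzyme of the anaphase-promoting complex, lay at 1412, 657 and 333 in NCFM cells at 4 h and at 2478, 722 and 640 in control cells. At 10 h it lay at 416, 144 and 118 in NCFM cells and at 1828 and 435 in control cells. Its 18 h intensities were 211, 122 and 114 in NCFM cells and 2499 and 293 in control cells. The 10 and 18 h groups were separate, with changes of -1.87 ± 0.41 (adjusted p = 0.00504) and -2.23 ± 0.41 (0.00177). Cdc20, an activator of that complex, was called at 18 h (-0.77 ± 0.26, 0.043), and its second probe set at both 10 h (-1.54) and 18 h (-1.88).

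Of the 2 chromosome structure genes, Top2a, the topoisomerase that untangles replicated DNA, was called. It lay at 1168, 463 and 399 in NCFM cells at 4 h and at 1942, 447 and 503 in control cells. The 10 h values were 454, 205 and 205 in NCFM cells and 1182 and 370 in control cells. At 18 h it lay at 314, 204 and 203 in NCFM cells and at 1463 and 294 in control cells. The NCFM number 1 array overlapped the control number 2 array at both later times, while within each number NCFM was lower. Top2a changed by -1.09 ± 0.31 at 10 h (adjusted p = 0.021) and -1.26 ± 0.31 at 18 h (0.0101). Mki67, the proliferation marker Ki-67, was not called. The 18 h values were 490, 813 and 801 in NCFM cells and 1471 and 592 in control cells, lower on number 1 and higher on number 2.

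The CHR element was searched as TTTGAA, whose other strand reads TTCAAA, and as TTCGAA, which reads alike on both strands. It was present in 14 of the 38 promoters (36.8%) and in 19.2% of all promoters. The CCAAT box, searched as CCAAT with its other strand ATTGG, was present in 24 of them (63.2%) and in 37.4% of all. CHR words stood in promoters of 5 of 7 genes of mitotic kinases, checkpoint and spindle, and of both ubiquitination and both chromosome structure genes. They also stood in those of 2 of 2 G2 to M genes, 2 of 7 licensing genes and 1 of 6 replication fork genes. None of 4 nucleotide synthesis genes and none of 4 S phase entry genes held one. The promoters of the called mitotic genes with the largest change in their roles and a CHR word are given with these words in capitals.
Ccnb2, chr9:70421505-70421804, minus strand: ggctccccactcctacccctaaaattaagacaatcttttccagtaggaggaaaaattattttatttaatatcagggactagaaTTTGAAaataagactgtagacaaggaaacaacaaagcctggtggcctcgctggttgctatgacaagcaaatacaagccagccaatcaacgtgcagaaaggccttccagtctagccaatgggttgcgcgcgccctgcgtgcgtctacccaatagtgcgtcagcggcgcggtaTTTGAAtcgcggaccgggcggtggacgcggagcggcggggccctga
Ube2c, chr2:164769679-164769978, plus strand: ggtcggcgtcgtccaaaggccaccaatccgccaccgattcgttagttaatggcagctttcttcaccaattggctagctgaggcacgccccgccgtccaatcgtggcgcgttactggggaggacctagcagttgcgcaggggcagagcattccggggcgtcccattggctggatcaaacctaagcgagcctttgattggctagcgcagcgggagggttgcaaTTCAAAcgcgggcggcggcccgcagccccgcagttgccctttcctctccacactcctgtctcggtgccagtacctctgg
Top2a, chr11:99024140-99024439, minus strand: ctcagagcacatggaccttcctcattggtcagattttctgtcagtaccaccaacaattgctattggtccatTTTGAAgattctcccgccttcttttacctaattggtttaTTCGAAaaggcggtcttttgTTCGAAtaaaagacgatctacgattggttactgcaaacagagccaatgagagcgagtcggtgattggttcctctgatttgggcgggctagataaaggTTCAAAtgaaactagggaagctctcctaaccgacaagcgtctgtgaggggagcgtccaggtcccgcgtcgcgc

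None of the 42 genes was called between 10 h and 4 h or between 18 h and 4 h in control cells (limma), and none had an unadjusted p under 0.05. Over all genes 0 and 1 were called, or 0.0% and 0.0055% called lower. The time course of control cells differed in size and sign between the numbers. On number 2 the median of the 42 differences from 4 h was -0.15 at 10 h and -0.24 at 18 h in control cells, and on number 1 it was -0.04 and 0.10. In NCFM cells the medians at 10 and 18 h were -0.33 and -0.39 on number 2, -0.31 and -0.34 on number 3, and -0.62 and -1.05 on number 1. In NCFM cells 11 of the 42 genes were called lower at 10 h than at 4 h, where 7.65% of all genes were called lower and 4.94% higher. At 18 h 16 were called lower than at 4 h, where 12.3% of all genes were called lower. Stmn1 (-2.53 ± 0.24, adjusted p = 3.5e-05), Pclaf (-2.41 ± 0.39, 0.00109) and Ube2c (-2.24 ± 0.36, 0.000948) had the largest of these. Without the replicate block the counts in NCFM cells were 1 at 10 h and 2 at 18 h, where 3.88% and 8.49% of all genes were called lower, so the share of cell cycle genes called was below that of all genes at both times. The 10 h count was 4 to 7 without any 1 of the NCFM 4 h or 10 h arrays, with 4 without NCFM 10 h replicate 1 or 3, and 7 without control 4 h replicate 2.

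The effect of NCFM, NCFM against control, grew between 4 h and 18 h for 4 genes by the test of the difference itself, where 5.93% of all genes passed in that direction and 3.23% in the other. These were Stmn1 (-2.12 ± 0.36, adjusted p = 0.00525), Mcm7 (-0.997 ± 0.26, 0.0358), Pola1 (-0.97 ± 0.22, 0.0189) and Cdk4 (-0.95 ± 0.18, 0.00815). Between 4 h and 10 h it grew for Cdk4 alone (-0.90 ± 0.18, 0.0296), where 1.55% of all genes passed in that direction and 0.962% in the other. The median difference of the effect over the 42 genes was -0.40 at 10 h and -0.61 at 18 h. With no replicate block the counts were 0 at 10 h and 1 at 18 h, where 0.308% and 2.22% of all genes passed in that direction. With or without the block, these counts were not far from the share of all genes. The 18 h count was 2 when control 4 h replicate 2 or the number 1 array of the 18 h controls was left out. It was 11 when the number 2 array of those controls was left out. The 10 h call of Cdk4 was lost without the block and without any 1 of the 4 h or 10 h arrays except the number 1 array of NCFM at 4 h and the number 2 array of the 10 h controls.

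Of 119 further cell cycle genes, 33 were called lower and 7 higher at 4 h, 50 lower and 7 higher at 10 h, and 56 lower and 8 higher at 18 h, with medians of -0.29, -0.41 and -0.54. Over all genes 19.3%, 21.2% and 21.3% were called lower and 7.55%, 9.95% and 9.2% higher at these times, so a smaller share of the list than of all genes was called higher at each. At 4 h the largest falls were of Orc5, an origin recognition subunit (-1.02 ± 0.11, adjusted p = 9.9e-05), the pocket protein Rbl2 (-0.95), the centromeric histone Cenpa (-0.94) and Rpa1, which coats single-stranded DNA (-0.93). At 18 h they were of Cks1b, a Cdk-binding protein (-2.02 ± 0.29, 0.000359), the condensin subunit Smc2 (-1.92 ± 0.21, 7.28e-05), the passenger complex subunit Cdca8 (-1.73) and Cep55, which acts in cytokinesis (-1.69). At 10 h Cep55 (-1.51), Cenpa (-1.43), Cdca8 (-1.41) and Cks1b (-1.23) led.

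The genes of this wider list that rose included Ccnd2, cyclin D2, at all 3 times (2.57 ± 0.49 at 4 h, 2.84 ± 0.56 at 10 h and 2.55 ± 0.56 at 18 h, adjusted p = 0.00281, 0.00284 and 0.00531). Cdkn1a, the Cdk inhibitor p21, rose at 4 h (1.79 ± 0.16, adjusted p = 2.56e-05), 10 h (0.81 ± 0.18, 0.0068) and 18 h (1.65 ± 0.18, 7.82e-05). Cdkn2b, the inhibitor p15 of Cdk4, rose at 10 h (0.68 ± 0.22, 0.0395) and 18 h (1.09 ± 0.22, 0.00355). Dck, deoxycytidine kinase of the salvage pathway, rose at 4 h (1.33), 10 h (1.66) and 18 h (1.08). Securin (Pttg1) rose at all 3 times (0.92, 1.62 and 1.09), and the pocket protein Rbl1 at 10 h (1.14) and not at 18 h (-0.04, adjusted p = 0.923).

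**Figure D4:**
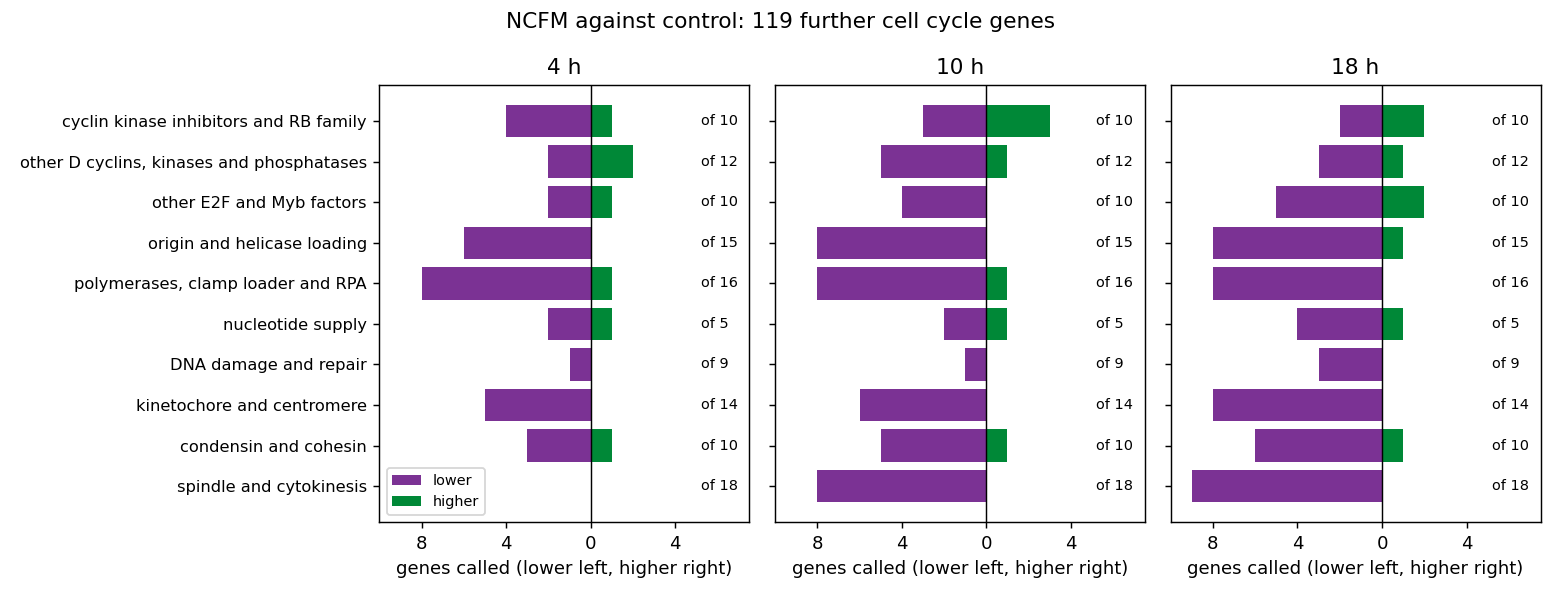
Number of the 119 further cell cycle genes called lower (left of 0, purple) and higher (right of 0, green) in NCFM cells against control cells at 4, 10 and 18 h, by functional group, with the number measured at the right. Spindle and cytokinesis genes have no call at 4 h, 8 falls at 10 h and 9 at 18 h.

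Summed intensities of marker lists of other cell types moved as well, lower with NCFM for some and higher for others. A sum can rest on 1 bright gene and does not show that the cell type was present. The summed intensity of 6 neutrophil markers was 7186 to 35036 in NCFM cells and 27964 to 40484 in control cells at 4 h, 12650 to 33713 in NCFM cells and 38535 to 47042 in control cells at 10 h, and 5291 to 16687 in NCFM cells and 22493 to 25163 in control cells at 18 h. Of the 6, 1, 2 and 2 were called lower at those times, against 19.3%, 21.2% and 21.3% of all genes, and the list lay higher on number 1 in all 6 groups (mean 0.54, log2). Among the 6, Cxcr2 was dim (141 to 196). For 8 markers of granulocyte and monocyte progenitors the sums were 2294 to 2551 in NCFM cells and 2014 to 2473 in control cells at 4 h. They were 1736 to 1894 in NCFM cells and 2304 to 2428 in control cells at 10 h. By 18 h the sums were 1529 to 1721 in NCFM cells and 1929 to 2161 in control cells. Of the 8 markers 2 were called higher at 4 h (7.55% of all genes were), 3 lower at 10 h and 2 lower at 18 h (21.2% and 21.3% of all genes were). Several of them were low, with Cd34, Mpo, Ctsg and Ms4a3 at 120 to 325. The 7 macrophage markers summed to 22614 to 41624 in NCFM cells and 38843 to 57240 in control cells at 18 h, and lay lower on number 1 in all 6 groups (mean -0.80). Of them 1 was called lower and 2 higher at 4 h, 3 lower and 2 higher at 10 h, and 3 lower and 1 higher at 18 h. The 3 lower at 18 h were the complement genes C1qa (-1.94) and C1qb (-1.52) and the receptor Csf1r (-0.71), and the 1 higher was Marco (1.85). For C1qa and C1qb the effect of NCFM differed between 18 h and 4 h (-1.38, adjusted p = 0.0228, and -1.28, 0.00626). Of the 8 dendritic cell markers none was called at 4 h. Itgax (CD11c) was called lower at 10 h (-0.54, adjusted p = 0.000157) and 18 h (-0.74, 2.13e-05), and the effect of NCFM on it differed between 18 h and 4 h (-0.85, 0.000561). Cd74 was called lower at 18 h (-0.22, 0.0181) and Zbtb46 higher at 10 h (0.81, 0.0103). The 6 mast cell and basophil markers summed to 1135 to 1293 in NCFM cells and 870 to 1084 in control cells at 4 h. At 18 h they summed to 1047 to 1517 in NCFM cells and 885 to 1026 in control cells. Hdc was the brightest of them (197 to 846), and Fcer1a, Ms4a2 and Mcpt4 were dim (80 to 139). The median of the 6 markers at 18 h was 7.09 to 7.31 in NCFM cells and 7.12 to 7.33 in control cells (log2), which overlap. The 4 plasmacytoid dendritic cell markers summed to 9994 to 13274 in NCFM cells and 2417 to 3557 in control cells at 18 h. Of these Bst2 lay at 1624 to 12281 and made up most of the larger sums. Tcf4 lay at 371 to 1462, and Siglech and Ccr9 were dim (90 to 193). The median of the 4 markers at 18 h was 8.2 to 8.39 in NCFM cells and 7.82 to 8.44 in control cells (log2), which overlap. The list as a whole was therefore not separate at 18 h. Markers of B cells, T and NK cells and erythroid cells were dim on every array (83 to 315). The part of these cells in the lower cell cycle signal was not tested.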

How the data were processed

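RNA of dendritic cells was hybridised to 16 single-channel arrays. The deposited table gives an intensity per probe set, linear whole numbers from 42 to 31573 already normalized between arrays by the authors. The summarization of probe sets, the background correction and the normalization method are not given in the sources used here. Of 45101 probe sets, 34945 name 1 gene, and the rest were left out. Where several named a gene (9010 genes), the one with the highest mean log2 intensity stood for it, and 18193 genes resulted. The kept probe sets of Aurkb, Ccne1, Cdk4, Fen1, Mcm2, Mcm3, Mcm5, Mcm7, Rrm2 and Stmn1 may match other transcripts by their type. The deposited table names no genome build.

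Log2 intensities were fitted in limma 3.58.1 under R 4.3.3 (lmFit and eBayes) with a mean for each of 6 groups and the array number as a block, on 8 residual degrees of freedom. Two-sided p-values were adjusted over the 18193 genes (Benjamini-Hochberg), with 0.05 as the threshold for a call. A second fit took all 34945 probe sets. What the array numbers mark is not in the labels, so the block rests on the data. Arrays of the same number deviated from their groups alike in all 36 pairs (r from 0.19 to 0.75, median 0.42), while the 70 pairs of different numbers had r from -0.75 to 0.73. In groups of 2 arrays the deviations mirror each other. The block takes 1 size of number difference for every group.

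The 43 genes, their 8 role lists, the 119 measured genes of the wider list and the cell type lists (49 markers measured) were chosen with earlier results of these data known. Values on every array are given for the gene with the largest mean change in each role, and for other genes of the 42 where the text turns on them. Of the wider list the 4 largest called falls and rises at each time are named. The alternatives were no block, a block of 2 levels, only arrays 1 and 2, other centring or normalization, background subtraction, a pseudocount of 16, the mean of probe sets, dim genes left out, a trended robust variance, an adjusted p under 0.01, and each array left out in turn. The fit over all probe sets and the array number term were added after the data were seen. The fit was also run on simulated data in which the NCFM effect was the same on all array numbers. That run cannot show how the fit behaves where the effect differs between numbers. Plots used matplotlib 3.10.9 under Python 3.11.15.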

Additional observations from a re-analysis of the deposited data

Results flagged for a closer look

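The effect of NCFM differed between times by the test of the difference itself for Cdk4 at 10 h minus 4 h (-0.90), and at 18 h minus 4 h for Cdk4 (-0.95), Mcm7 (-0.997), Pola1 (-0.97) and Stmn1 (-2.12), all on the log2 scale and all larger at the later time.

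The effect also differed between array numbers, as the NCFM effect on arrays numbered 1 minus that on numbers 2 and 3. The difference passed for the mitotic genes Aurka (-0.99), Bub1 (-0.91), Bub1b (-0.74), Mad2l1 (-1.10) and Plk1 (-1.04), for the cyclins Ccna2 (-1.58), Ccne1 (-1.16) and Ccne2 (-1.32), for the licensing genes Cdc6 (-0.75), Cdt1 (-1.42) and Mcm6 (-0.70), and for the nucleotide genes Rrm1 (-0.92) and Tk1 (-1.08). Of these 13 genes, Bub1b, Ccna2, Ccne1, Ccne2, Cdt1 and Mad2l1 were called at none of the 3 times in the comparison of NCFM with control. With background subtraction none of the 13 passed. The arrays numbered 1 differ from the others in Xist and Eif2s3y as well, and what else the numbers mark is not stated in the labels.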

How the results depend on the processing

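No called value of the 42 genes changed sign under the 28 alternatives to the comparisons of NCFM with control, of times and of the effect between times, nor under those run for the array number term. Without the replicate block, genes called lower were 2, 4 and 6 of 42 at 4, 10 and 18 h (13.1%, 16.5% and 16.3% of all genes were). For the difference of the effect at 10 and 18 h from 4 h they were 0 and 1 (0.308% and 2.22% of all genes). For NCFM cells at 10 and 18 h against 4 h they were 1 and 2 (3.88% and 8.49% of all genes). With only arrays 1 and 2 (and the block) the genes called lower were 1 at 4 h, 13 at 10 h, 0 and 1 for the differences of the effect, and 2 for NCFM cells at 10 h. At an adjusted p under 0.01 they were 2, 13 and 15 at the 3 times, 0 and 2 for the differences, and 3 for NCFM cells at 10 h. Quantile normalization gave 2 at 4 h. Centring on 18 spike-in probe sets, which moves the median of all genes by 0.18 at 4 h, -0.23 at 10 h and 0.02 at 18 h, gave 2 at 4 h, 25 and 13 for the differences of the effect and 31 for NCFM cells at 10 h. Background subtraction gave 0 for the 10 h difference and 0 for the array number term. The mean of probe sets gave 7 for NCFM cells at 10 h. Spike-in centring moves all genes of an array alike, so its counts do not set the 42 genes apart. Apart from the fit without the block, the share of all genes called is not given for these alternatives or for the fits with 1 array left out. Their counts cannot be set against all genes.

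With each array left out, counts ranged over 2 to 12 at 4 h, 5 to 31 at 10 h and 13 to 30 at 18 h, 0 to 2 and 2 to 11 for the differences of the effect, 4 to 14 and 13 to 18 for NCFM cells, and 0 to 30 for the array number term. The median change of the 42 genes ranged over -0.50 to -0.26 at 4 h, -1.04 to -0.61 at 10 h and -1.34 to -0.59 at 18 h. Called higher in some alternative were Ccnd1 and Tyms at 4 h and Ccnd1 at 18 h. Control cells had no call among the 42 genes under any of these. Of the 93 probe sets of the 42 genes 1 was called higher, a dim one of Tyms at 10 h. Of the 93, 23 lay under a mean intensity of 167, the highest array median, where dim signal limits what can be measured. At 18 h, NCFM arrays 2 and 3 lay under 162, the lowest array median, for Aurka, Birc5, Ccnb2, Cdc6, Kif11, Pola1, Rrm2 and Ube2c. All of these were called lower there, and dim signal limits the size of fall that can be measured for them. Having 2 control arrays at 10 and 18 h limits those comparisons, and array number 3 has no control there.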
